A study of Arabidopsis thaliana with 12 samples.

Results

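The 71 loci described here are those of the Arabidopsis thaliana genome whose small RNA reads were several times more abundant in seedlings grown without nitrogen than in seedlings grown with it, in wild type and in a dcl4 mutant alike. They were chosen from 32420 gene loci by the measured values. The 21-nt and 22-nt values of a locus were summed, and a locus was kept if the sum without nitrogen was at least 10 normalized reads and at least 4 times the sum with nitrogen plus 1, in both genotypes. Of the 32420 loci, 121 met this in the wild type, 534 met it in the mutant and 81 met it in both. Of those 81 loci, 10 were on a list of 15 identifiers left out of the selection, and none lay in the chloroplast or mitochondrial genome. The 71 loci that remained are 61 protein-coding genes of 26700 in the table, 9 microRNA genes of 178 and 1 pseudogene of 3903, by the RefSeq annotation. They lie on all 5 chromosomes, with 16, 12, 16, 9 and 18 loci on chromosomes 1 to 5.

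Small RNA was sequenced from total RNA of whole seedlings aged 10 days in 4 groups of 3 libraries, wild type Col-0 and the mutant dcl4-2, each on MS medium (with nitrogen) and on MS-N medium (without nitrogen). dcl4-2 is a mutant allele of DICER-LIKE 4 (DCL4) in the Col-0 background, and no second allele or complemented line was among the samples. All groups share the same age, tissue and basal medium. Whole seedlings mix all tissues, so fewer cells of a type and less small RNA per cell cannot be told apart. Values are normalized reads, meaning a library's reads over its size factor, and are shown as mean ± SD of n = 3 libraries.

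Dicer-like enzymes cut double-stranded RNA into small RNAs of set lengths. In Arabidopsis DCL1 releases microRNAs, mostly of 21 nt, from hairpin precursors, DCL4 makes 21-nt siRNAs from long duplexes of RNA, and DCL2 makes 22-nt siRNAs, which become more abundant where DCL4 is missing. A messenger RNA copied into double-stranded RNA can feed both enzymes, and its siRNAs then carry the sequence of that gene. Reads can also come from degraded messenger RNA, and a read count at a coding locus is an amount of small RNA, not of messenger. Plants without nitrogen raise uptake systems and remobilise amino acids, and microRNAs are among the regulators known to respond.

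Mature sequences annotated for the 9 microRNA genes are given below, without the 3p products of MIR164b and MIR167c. They are shown because the groups of identical or related sequences limit which gene a read can be given to. Sequences are those of RefSeq for TAIR10.1, written 5′ to 3′, with the seed, bases 2 to 8, in capitals. The first pair are the miR164 molecules, which act on messengers of NAC transcription factors, and miR164a and miR164b-5p are identical.
ath-miR164a: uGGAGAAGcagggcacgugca
ath-miR164b-5p: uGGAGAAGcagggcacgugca
The next pair are miR156 molecules, which act on messengers of SPL transcription factors and set the juvenile phase. They share the seed and differ outside it.
ath-miR156g: cGACAGAAgagagugagcac
ath-miR156h: uGACAGAAgaaagagagcac
The others each have a seed of their own among these genes. miR167c belongs to the family that acts on auxin response factors, miR172c to the family that acts on AP2-like messengers, and miR858a acts on messengers of MYB factors of phenylpropanoid metabolism. No role is given for miR837 and miR839.
ath-miR167c-5p: uAAGCUGCcagcaugaucuug
ath-miR172c: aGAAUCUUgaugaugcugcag
ath-miR858a: uUUCGUUGucuguucgaccuu
ath-miR837-5p: aUCAGUUUcuuguucguuuca
ath-miR837-3p: aAACGAACaaaaaacugaugg
ath-miR839-5p: uACCAACCuuucaucguuccc

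Library totals, inferred from the deposited rpm values, ran from 4515437 to 7270637 reads. Small RNA reads of DCL4 itself were few in every group, with library values of 1.06 to 5.24 normalized reads at 21 nt and 1.02 to 11.1 at 22 nt, and since they are not messenger they do not check the mutant label. Reads of tasiRNA loci, whose 21-nt siRNAs DCL4 is known to make, ran from 24806 to 32051 rpm in the Col-0 libraries on MS and from 6557 to 7007 rpm in those of dcl4-2. On MS-N they ran from 43581 to 53234 and from 14656 to 16049 rpm, so the genotypes did not overlap on either medium. Among the deposited feature classes, 21-nt plus 22-nt microRNA reads were 95089 ± 8641 rpm in Col-0 on MS, 160329 ± 4483 rpm in Col-0 on MS-N, 123197 ± 8522 rpm in dcl4-2 on MS and 231500 ± 9330 rpm in dcl4-2 on MS-N. Fragments of tRNA fell from 8072 ± 317 to 4732 ± 271 rpm in Col-0 and were 6496 ± 235 and 8264 ± 575 rpm in dcl4-2, on MS and MS-N. Fragments of snoRNA were 476 ± 43.7 and 1137 ± 70.8 rpm in Col-0 and 417 ± 106 and 1939 ± 144 rpm in dcl4-2. These classes move with the medium, and their part in the values of single loci was not tested.

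The medium chose the loci, so their response to it is described with no test. In Col-0 the summed value of the 71 loci ran from 0 to 159 normalized reads on MS, with a median of 2.30, and from 10.4 to 1608 on MS-N, with a median of 29.4. In dcl4-2 it ran from 0 to 406 on MS (median 2.41) and from 10.9 to 3315 on MS-N (median 39.9). On MS, 21 loci in Col-0 and 15 in dcl4-2 had a sum below 1. The ratio of the MS-N sum to the MS sum plus 1 had a median of 6.73 in Col-0, with a highest value of 27.6, and a median of 10.3 in dcl4-2, with a highest value of 74.9. At 21 nt the 3 MS-N libraries lay above all 3 MS libraries at 70 of 71 loci in each genotype (11.7% of all loci tested in Col-0 and 15.6% in dcl4-2). At 22 nt they did so at 64 of 69 loci in Col-0 (11.1% of all) and at 66 of 69 in dcl4-2 (20.1% of all). The rule used this contrast, and nothing is read from these counts. Few reads stand behind many MS values. Folds below are ratios of summed group means, written as at least a value where MS had no read, and with a 95% counting interval where MS had 1 to 3 reads. In Col-0 this left 49 loci with a plain ratio, 18 with an interval and 4 with a lower bound, and in dcl4-2 it left 52, 12 and 7.

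**Figure D1:**
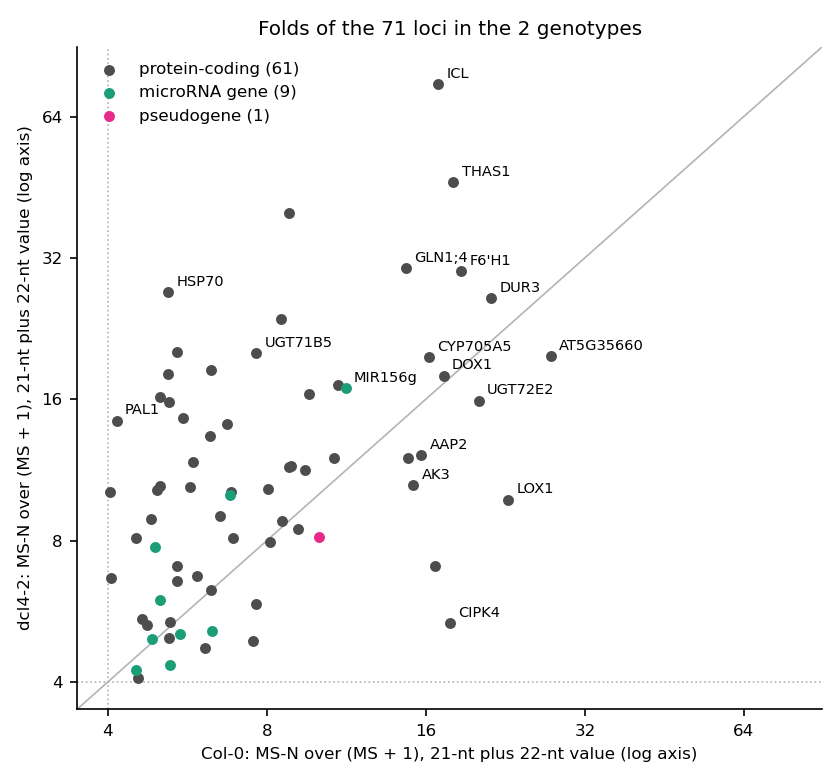
Each point is 1 of the 71 loci, with the summed 21-nt plus 22-nt value on MS-N over that on MS plus 1, in Col-0 on the x axis and in dcl4-2 on the y axis, both log axes. Dotted lines are the threshold of 4 and the solid line marks equal folds. ICL reaches 74.9 in dcl4-2, the glycine-rich protein gene AT5G35660 reaches 27.6 in Col-0, and the 9 microRNA genes lie between 4.25 and 16.9.

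Near the threshold the choice is arbitrary. ADT5, PPC3 and KCS2 lie just inside, with smaller folds of 4.04, 4.05 and 4.08 over MS plus 1. AT4G01610, UCP5 and ABCB4 lie just outside, with 3.92, 3.95 and 3.96.

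The 9 microRNA genes together held 2139 of the 6951 normalized reads of the 71 loci in Col-0 on MS-N. MIR167c was the most abundant of them, and it gave 21-nt and 22-nt reads in similar amounts. At 21 nt its libraries were 76.6, 45.7 and 68.2 normalized reads in Col-0 with nitrogen and 362, 211 and 374 without. Those of dcl4-2 were 176, 218 and 107 with nitrogen and 616, 800 and 704 without. At 22 nt the means were 75 ± 11.9, 360 ± 49.4, 109 ± 30 and 655 ± 25.6 in the same order. The MS-N libraries lay above the MS libraries in both genotypes, with folds of 4.88 in Col-0 and 4.94 in dcl4-2.

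MIR164a and MIR164b had nearly the same values, 313 ± 94.5 and 338 ± 95.3 normalized 21-nt reads in Col-0 on MS-N, against 58.5 ± 6.43 for MIR164a and libraries of 55.1, 71.8 and 53.7 for MIR164b on MS. These mature sequences are identical, so values of such reads cannot be given to 1 gene or the other. Both folds in Col-0, 5.33 and 5.56, rest on the same kind of read. In dcl4-2 the pair rose from 142 ± 40.6 and 134 ± 43.2 on MS to 618 ± 73.4 and 685 ± 75.9 on MS-N.

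MIR858a held 70.1 ± 23.7 normalized 21-nt reads with nitrogen in Col-0 and 341 ± 112 without, and the mutant held 168 ± 50.9 and 705 ± 43.0. The 3 libraries of Col-0 on MS-N spread widely, at 385, 214 and 425. The MIR858a transcript also holds the full mature sequence of ath-miR858b, so reads of that sequence may not be told apart between the genes. MIR837, which lies inside the annotated gene NRT1.9 on the same strand, had tight libraries of 43.0, 42.0 and 45.5 in Col-0 with nitrogen and of 299, 238 and 299 without. The mutant had 82.6, 81.4 and 80.0 with nitrogen and 399, 441 and 410 without. No library of 1 medium overlapped those of the other.

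MIR156g had the highest fold of the microRNA genes, going from 4.58 ± 2.96 to 61.1 ± 6.03 normalized 21-nt reads in Col-0, and in the mutant from 6.25 ± 2.73 to 115 ± 23.9. MIR156g lies on the strand opposite to the coding gene AT2G19420. It shares 5 words of 21 bases with each of MIR156e and MIR156f, so part of its reads may not be told apart from theirs. MIR156h was low, with 15.2 ± 6.80 on MS-N in Col-0 and 24.5 ± 8.98 in dcl4-2, against 1.23 ± 0.429 and 1.53 ± 1.77 on MS. MIR172c reached 11.4 ± 3.19 and 19.1 ± 3.57 on MS-N and had no 22-nt read in any library. MIR839 reached 40.1 ± 5.65 and 28.4 ± 1.58, and it alone among the microRNA genes had a lower mean in dcl4-2 than in Col-0 on MS-N at 21 nt.

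**Figure D2:**
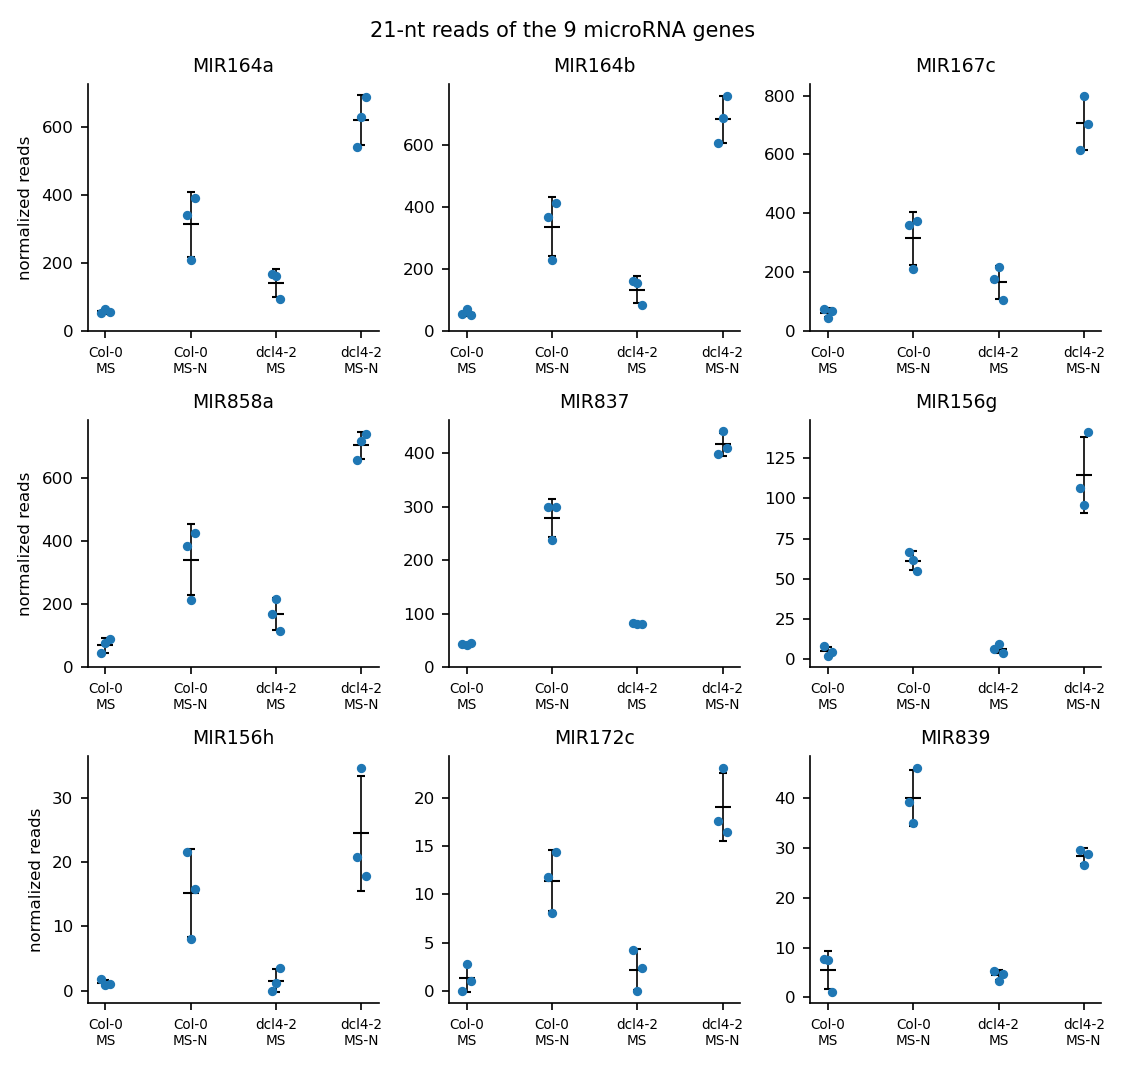
The 9 panels show normalized 21-nt reads of each microRNA gene in the 4 groups, with 3 points for the libraries and a bar for mean ± SD. In every panel the MS-N libraries of a genotype lie above its MS libraries, and the dcl4-2 libraries lie above the Col-0 libraries on MS-N at MIR164a, MIR164b, MIR167c, MIR858a, MIR837, MIR156g and MIR172c.

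Of 32 genes of nitrogen transport and assimilation on a list drawn from background knowledge, 4 are among the 71 loci, and 3 more met the thresholds but were on the list of identifiers left out. DUR3, the high-affinity urea transporter, went from 1 recovered 21-nt read in the 3 Col-0 libraries on MS to library values of 15.1, 16.8 and 9.37 normalized reads on MS-N. In dcl4-2 its libraries on MS-N were 24.2, 28.9 and 23.4 at 21 nt and 16.7, 46.4 and 51.3 at 22 nt. The fold of the sums was 89.7 (counting interval 15.8 to 3571) in Col-0 and 44.6 in dcl4-2. The libraries without nitrogen all exceeded those with it, at a level that stayed low in wild type.

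WR3, better known as NRT3.1, the partner protein of the nitrate transporter NRT2.1, held 4.80 ± 0.887 normalized 21-nt reads in Col-0 on MS-N and 12.4 ± 1.93 in dcl4-2, against 0 and 1.14 ± 1.16 on MS. GLN1;4, a cytosolic glutamine synthetase, was at 0 in all Col-0 libraries on MS and reached 9.17, 7.39 and 7.21 on MS-N at 21 nt, at least 15.3-fold higher for the summed lengths. In dcl4-2 it reached 26.4, 24.3 and 16.5. GLU2, a ferredoxin-dependent glutamate synthase, had 20.8 ± 4.11 in Col-0 and 41.7 ± 5.12 in the mutant on MS-N at 21 nt, with 1.2 ± 1.04 and 4.81 ± 1.29 on MS. At each of these 4 genes the 21-nt libraries of dcl4-2 on MS-N lay above those of Col-0 on MS-N, as they did at 32 of all 71 loci and at 14.3% of all loci tested, and none of the 4 differences passed the test (limma, adjusted p of 0.345 for DUR3, 0.231 for WR3, 0.139 for GLN1;4 and 0.189 for GLU2).

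**Figure D3:**
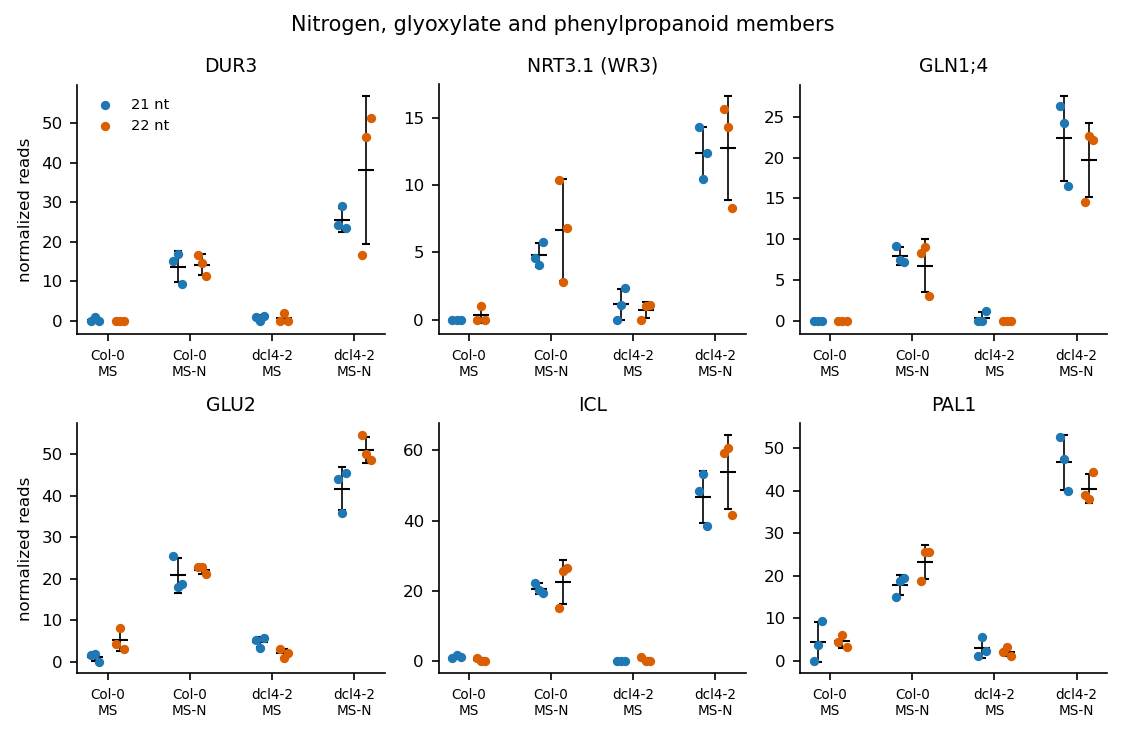
Panels show normalized reads of DUR3, NRT3.1 (WR3), GLN1;4, GLU2, ICL and PAL1 by group, 21-nt reads in blue and 22-nt reads in orange, with 3 library points and mean ± SD. At each gene the MS-N libraries of a genotype lie above its MS libraries at both lengths, with dcl4-2 means above Col-0 means on MS-N (for ICL at 21 nt, 46.7 against 20.6).

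Further members act in the metabolism of organic acids and amino acids. They fall outside the lists and were partly named after their values were seen. ICL, the isocitrate lyase of the glyoxylate cycle, held 20.6 ± 1.46 normalized 21-nt reads in Col-0 on MS-N and 46.7 ± 7.50 in dcl4-2. On MS its libraries were 0.860, 1.87 and 1.03 in Col-0, and in dcl4-2 they had no 21-nt read. The fold of the sums was 27.8 in Col-0 and 294 (counting interval 52.4 to 11674) in dcl4-2. PPC3, a phosphoenolpyruvate carboxylase, reached 12.1 ± 1.49 and 30.7 ± 10.4 on MS-N. PGDH, which opens serine synthesis, reached 6.67 ± 2.45 and 16.9 ± 4.26. GAMMA-VPE, a vacuolar protease, was the most abundant of this group, with 73.3 ± 8.71 in Col-0 and 174 ± 19.1 in the mutant on MS-N, against 10.7 ± 4.93 and 14 ± 2.53 on MS. The gene AT2G43500, annotated as NLP8 and related to the nitrate-responsive NIN-like factors, had no read on MS in either genotype, and the sums on MS-N were at least 11.4-fold and 15.9-fold higher.

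Phenylpropanoid metabolism turns phenylalanine into lignin precursors, coumarins and flavonoids. Of 27 flavonoid and anthocyanin genes on a list, 1 is a member, and 4 more met the thresholds but were left out by identifier. That member is PAL1, the phenylalanine ammonia-lyase that opens the pathway, with 17.8 ± 2.38 normalized 21-nt reads in Col-0 and 46.7 ± 6.45 in the mutant on MS-N, and 4.34 ± 4.68 and 2.98 ± 2.33 on MS. At 22 nt its libraries on MS-N were 18.7, 25.6 and 25.6 in Col-0 and 39.0, 38.1 and 44.3 in dcl4-2. Other members belong to neighbouring steps and were picked out after their values were seen. 4CL1 and 4CL2, 4-coumarate:CoA ligases, reached 17.1 ± 2.34 and 11.4 ± 3.21 in Col-0 on MS-N at 21 nt. CAD5, a cinnamyl alcohol dehydrogenase, reached 5.23 ± 1.66 in Col-0 and 18.2 ± 2.89 in dcl4-2.

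UGT72E2, which glucosylates monolignols, had a fold of 34.0 in Col-0 and 19.3 in dcl4-2, with 21-nt libraries of 32.1, 40.3 and 23.1 in Col-0 on MS-N. AT3G13610, annotated as F6'H1, the hydroxylase of scopoletin synthesis, had no read of either length in any MS library of either genotype. On MS-N its 21-nt libraries were 9.17, 8.74 and 12.3 in Col-0 and 12.1, 18.5 and 17.9 in dcl4-2, and the sums were at least 19.4-fold and 27.8-fold higher.

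A pair of genes of the root triterpene thalianol lies close together on chromosome 5, with 1 annotated locus between them. THAS1, the synthase, had no read on MS in either genotype. On MS-N it held 10.2 ± 3.98 normalized 21-nt reads in Col-0 and 23.9 ± 2.23 in dcl4-2, and the sums were at least 18.7-fold and 43.1-fold higher. CYP705A5, the thalian-diol desaturase, had 9.63 ± 4.17 and 22.7 ± 4.51 at 21 nt. At 22 nt the genes of the pair were at 7.83 ± 3.48 and 12.1 ± 4.01 in Col-0, so reads of both lengths came from both genes in similar amounts.

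Genes of stress responses and signalling make up a further group. DOX1, an alpha-dioxygenase of fatty acids, went from 2.23 ± 0.758 to 31.7 ± 8.62 normalized 21-nt reads in Col-0, and in the mutant from 4.75 ± 3.36 to 74.2 ± 15.1. LOX1, a lipoxygenase, LTI78, a cold- and drought-induced protein, CSD1, a superoxide dismutase, and GolS4, a galactinol synthase, had means of 4.04 to 26.3 in Col-0 on MS-N. The protein kinase genes SR1 (CIPK14) and CIPK4, which bind calcium sensors, and MKK9, a MAP kinase kinase, had 62.1 ± 5.82, 27.0 ± 5.15 and 23.7 ± 2.41. At these 3 genes the dcl4-2 means on MS-N were lower, at 37.7 ± 11.3, 8.73 ± 4.41 and 10.8 ± 4.46, and none of the differences passed the test (limma, adjusted p of 0.297, 0.0690 and 0.162). The genes of this group apart from DOX1 were named after their values were seen.

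Abundant loci of other kinds follow. AT3G43828, an annotated pseudogene, was the most abundant of the 71, with 21-nt libraries of 875, 1006 and 961 normalized reads on MS-N in Col-0 and 2638, 2340 and 1910 in dcl4-2, against 99.9 ± 43.1 and 300 ± 291 on MS. Of its 21-base words, 16.3% occur elsewhere in the genome and 6.59% have their reverse complement within the locus, so part of its reads may belong to related copies. AT1G61230, a mannose-binding lectin gene, had 420 ± 48.3 and 724 ± 31.5 on MS-N, nearly all of 21 nt. AT5G35660, of a glycine-rich protein family, had uneven libraries of 53.0, 109 and 41.8 in Col-0 on MS-N.

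Genotype within a medium is not the contrast of the rule, but it is made of the same values. The thresholds were applied to each genotype and were met by more loci in dcl4-2 than in Col-0, so counts and medians over the 71 loci are descriptions at the deposited scaling, and nothing particular to the loci is read from them. On MS-N, 58 of the 71 loci (81.7%) had a higher summed value in dcl4-2 than in Col-0, against 40.5% of the 3326 nuclear loci with at least 10 normalized reads in both groups. The median ratio was 1.73 for the 71 loci and 0.864 for the 3326. In the fit over all loci (limma on log2 of value plus 1), the median log2 difference of the 71 loci was 0.63 at 21 nt and 0.84 at 22 nt, against 0.14 and 0.32 for all loci tested. At 21 nt on MS-N, 14 of 71 loci passed an adjusted p of 0.05, 9 higher and 5 lower in dcl4-2, where 4.58% of all 19385 loci passed (2.32% higher and 2.26% lower). At 22 nt, 9 of 69 passed, 8 higher and 1 lower, where 6.29% of 20147 loci passed (4.16% and 2.13%). Every member has at least 10 normalized reads on MS-N by the rule, while most loci in that background have fewer, so the shares are not measured at like depth.

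The number of calls in each direction depends on the scaling. With trimmed-mean scaling, which moved the median of all loci from 0.14 to -0.04 at 21 nt and from 0.32 to 0.03 at 22 nt, the split was 5 higher and 9 lower at 21 nt and 2 higher and 1 lower at 22 nt. With the reads of microRNA genes scaled to a common sum, which moved the median to -0.33 and -0.11, it was 0 higher and 13 lower at 21 nt and 1 and 1 at 22 nt. The members' own median fell with them, to 0.29 at 21 nt and 0.35 at 22 nt with the trimmed mean and to -0.18 and 0.15 with the common microRNA sum, so its sign at 21 nt turns. The common microRNA sum covers only genes whose library reads were recovered, the microRNA members among them. It lacks the loci that were left out of the fits. AK3, bZIP7, AAP2, AHL26 and BCS1, lower at 21 nt, and UGT71B5, higher at 22 nt, were called under both scalings. In the authors' deposited table an adjusted p of 0.05 was reached by 20 of 62 members at 21 nt, 15 higher and 5 lower, where 12.2% of all loci with a value reached it, 7.3% higher and 4.87% lower. The 5 lower there include AT4G29700 (authors' adjusted p = 0.0458) and not BCS1 (authors' adjusted p = 0.0681). At 22 nt the authors' deposited table had 22 of 65, 21 higher and 1 lower, where 13.8% of loci reached it, 9.29% higher and 4.48% lower.

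The 5 loci with fewer 21-nt reads in dcl4-2 on MS-N are AK3, bZIP7, AT4G12050 (AHL26), AAP2 and BCS1. AK3, an aspartate kinase at the entry to lysine, threonine and methionine synthesis, had the largest difference of the members tested. Its 21-nt libraries on MS-N were 349, 266 and 327 normalized reads in Col-0 and 4.39, 6.94 and 11 in dcl4-2. The groups were far apart, 42.2-fold lower in the mutant (log2 difference -5.29 ± 0.41 SE, limma adjusted p = 1.02e-15). At 22 nt the Col-0 libraries were 53.9, 88.5 and 75.4 and those of dcl4-2 were 21.2, 13.1 and 22.2, 3.86-fold lower (log2 -1.90 ± 0.40, adjusted p = 0.0017). On MS both lengths were lower in dcl4-2 too, with 17.7 ± 4.20 against 1.16 ± 2.01 at 21 nt (log2 -3.48 ± 0.41, adjusted p = 6.79e-09) and 6.83 ± 1.64 against 0.343 ± 0.594 at 22 nt (log2 -2.61 ± 0.40, adjusted p = 2.21e-05). AK3 overlaps AT3G02010 on the opposite strand over 40.7% of its words. AT3G02010 is listed at 0 in all libraries of both lengths, so the deposited counting gave it no read of the shared stretch.

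bZIP7, a leucine-zipper transcription factor gene, had 21-nt libraries of 76.0, 96.8 and 82.2 in Col-0 on MS-N and of 5.49, 4.63 and 2.75 in dcl4-2, 19.8-fold lower (log2 -4.05 ± 0.44, limma adjusted p = 2.91e-10). At 22 nt the libraries overlapped, with 14.5 ± 2.47 and 18.1 ± 8.93. On MS its 21-nt reads were also lower in dcl4-2, at 1.5 ± 1.7 against 11.5 ± 0.451 (log2 -2.57 ± 0.44, adjusted p = 5.38e-05). AAP2, an amino acid permease, had 54.4, 65.9 and 49.0 in Col-0 and 8.79, 13.9 and 9.63 in dcl4-2 at 21 nt on MS-N (log2 -2.30 ± 0.51, limma adjusted p = 0.0024), with 12.9 ± 2.05 and 14.6 ± 4.69 at 22 nt. The 21-nt reads were 5.24-fold lower, and the 22-nt difference did not pass the test (adjusted p = 0.92).

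AHL26, of the AT-hook DNA-binding family, had 22.9, 42.3 and 25.2 in Col-0 and 5.49, 4.63 and 4.13 in dcl4-2 (log2 -2.39 ± 0.51, limma adjusted p = 0.00138). With a pseudocount of 0.1 the adjusted p of AHL26 is 0.123 and that of AAP2 is 0.33. BCS1, also named OM66, a protein of the outer mitochondrial membrane, had 22.9, 21.5 and 23.1 in Col-0 and 4.39, 2.31 and 12.4 in dcl4-2 (log2 -1.92 ± 0.55, adjusted p = 0.0287). Its call is the least secure of the 5, and it is lost without any 1 of 5 of the 6 MS-N libraries (adjusted p up to 0.299 over all alternatives). Both genes still had more reads on MS-N than on MS in dcl4-2, with folds of the sums of 9.95 and 24.3 (counting interval 6.34 to 207).

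UGT71B5, a glycosyltransferase gene, gained 22-nt reads in dcl4-2. Its 22-nt libraries on MS-N were 53.9, 65.0 and 52.8 in Col-0 and 946, 903 and 773 in dcl4-2. The mutant was 15.3-fold higher (log2 3.91 ± 0.29, limma adjusted p = 5.21e-14), while the 21-nt libraries, 202, 224 and 253 against 268, 214 and 193, overlapped (adjusted p = 0.981). On MS the 22-nt means were 7.84 ± 0.720 and 38.2 ± 26.6 (log2 1.88 ± 0.29, adjusted p = 2.68e-05). It shares 84 of its 21-base words with the related gene AT4G15260, so a part of its reads may not be told apart from those of that gene. AT4G15260, which is no member, held 5.4 ± 2.51 normalized 22-nt reads in Col-0 and 77.3 ± 18.5 in the mutant on MS-N. The rise from MS to MS-N, described without test, was 7.85-fold in Col-0 and 20.5-fold in the mutant for the sum.

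**Figure D4:**
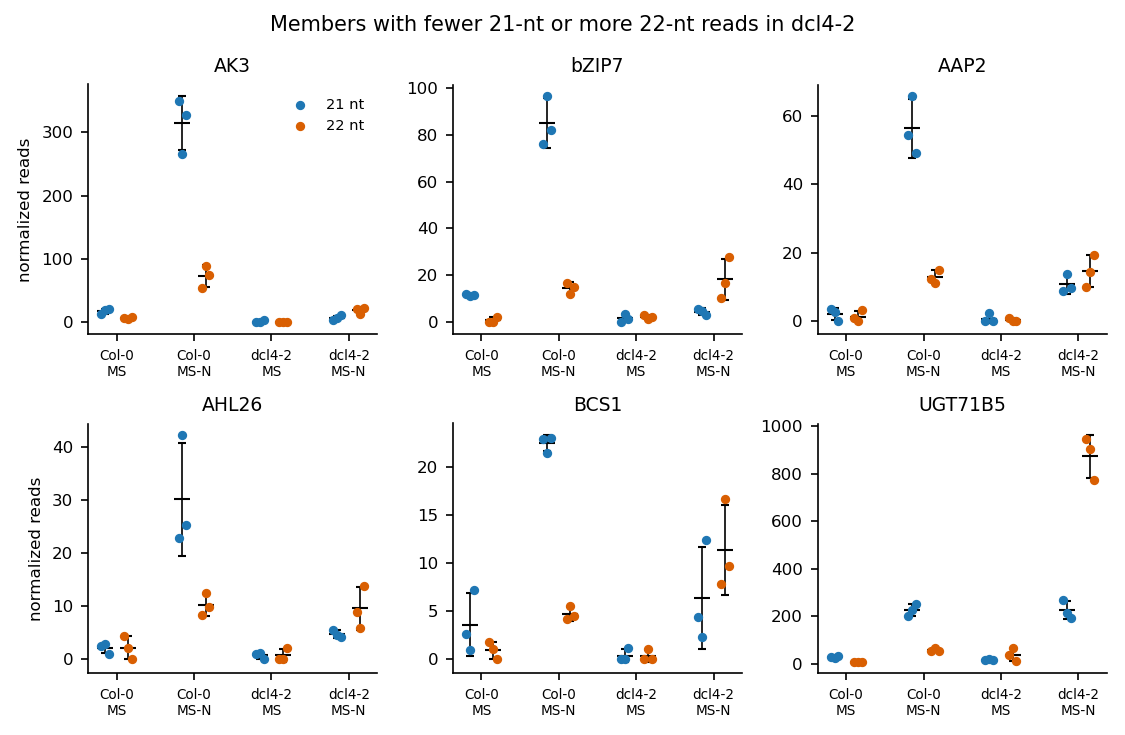
Panels show normalized reads of AK3, bZIP7, AAP2, AHL26, BCS1 and UGT71B5 by group, 21-nt reads in blue and 22-nt reads in orange, with 3 library points and mean ± SD. The 21-nt points of Col-0 on MS-N stand above those of dcl4-2 on MS-N in the first 5 panels (for AK3, 266 to 349 against 4.39 to 11), and UGT71B5 shows its 22-nt points of 773 to 946 in dcl4-2 on MS-N.

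Members with more reads in dcl4-2 on MS-N under the deposited scaling include chaperone and microRNA genes. HSP70, a heat shock chaperone, had 21-nt libraries of 26.9, 45.7 and 62.7 in Col-0 and 121, 186 and 106 in dcl4-2 (log2 1.63 ± 0.35, limma adjusted p = 0.00178), and 22-nt means of 45.3 ± 8.84 and 134 ± 41.1 (log2 1.51 ± 0.35, adjusted p = 0.00475). AT3G09440, of the same chaperone family, had 60.2 ± 11.6 and 175 ± 37.0 at 21 nt (log2 1.53 ± 0.34, adjusted p = 0.0024). The pair share 16 words of 21 bases, and AT3G09440 also shares 23.6% of its words with AT3G09430 on the opposite strand. GAMMA-VPE was higher at both lengths, by 1.23 ± 0.30 and 1.41 ± 0.27 on the log2 scale (limma adjusted p = 0.00834 and 0.000428). PGDH (log2 1.85 ± 0.58, adjusted p = 0.0463) and PPC3 (log2 1.41 ± 0.43, adjusted p = 0.037) were higher at 22 nt, and both calls are lost without any 1 of the 6 MS-N libraries. The 21-nt call of HSP70 is lost without library 1 of Col-0. Its 22-nt call is lost without library 2 of Col-0 or library 2 of dcl4-2 and with trimmed-mean scaling. The 21-nt call of GAMMA-VPE is lost without library 1 or 3 of Col-0 or library 2 of dcl4-2. Trimmed-mean scaling also removes that call and the 22-nt calls of PGDH and PPC3. The pseudogene AT3G43828 was higher at 21 nt (log2 1.27 ± 0.32, limma adjusted p = 0.00947), a call kept under 6 of 13 alternatives. It is lost with trimmed-mean scaling and without library 1 or 3 of Col-0 or library 2 of dcl4-2. The authors' deposited adjusted p for AT3G43828 at 21 nt is 0.2. HSP70 was chosen after its values were seen.

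Among the microRNA genes MIR167c, MIR858a, MIR164a and MIR164b were higher in dcl4-2 on MS-N at 21 nt, by 1.2 ± 0.23, 1.1 ± 0.23, 1.02 ± 0.22 and 1.05 ± 0.22 on the log2 scale (limma adjusted p from 0.000261 to 0.00185). All 4 calls are lost when reads of the recovered microRNA genes, these 4 among them, are scaled to a common sum. The smallest value there, that of MIR164a, is 0.15. Those of MIR858a, MIR164a and MIR164b are also lost without library 2 of Col-0, the lowest of its group, and that of MIR164a with trimmed-mean scaling. On MS the same 4 genes were higher by 1.35 ± 0.23, 1.26 ± 0.23, 1.22 ± 0.22 and 1.1 ± 0.22 (limma adjusted p from 4.04e-05 to 0.00112). MIR837 was higher on MS (log2 0.89 ± 0.21, limma adjusted p = 0.00949) and is at -0.06 under the common sum. Its call is also lost without library 2 of Col-0. AT1G61230 was higher on MS-N and MS, by 0.79 ± 0.19 and 0.74 ± 0.19 (limma adjusted p = 0.0065 and 0.0239), and is at -0.08 and -0.22 under the common sum. Its call on MS-N is also lost with trimmed-mean scaling and without library 2 of Col-0. Its call on MS is lost without library 1, 2 or 3 of Col-0 or library 1 of dcl4-2. The microRNA class as a whole was higher in dcl4-2 on both media, as given above, and its part in these calls was not tested.

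On MS, 10 of 71 members passed at 21 nt, where 1.27% of all loci did, 6 higher and 4 lower (0.5% and 0.769% of all), and 4 of 69 passed at 22 nt, where 1.44% did, 2 in each direction (0.869% and 0.571%). The scaling also moved this split, to 9 and 4 at 21 nt with the trimmed mean and to 0 and 11 with the common microRNA sum. The shares on MS are not measured at like depth either. Among loci of at least 5 in at least 3 libraries, 14 of 71 members and 271 of 5999 loci passed at 21 nt. At 22 nt these were 4 of 62 and 367 of 7135. The calls named next are those of the main fit. The 4 lower at 21 nt were AK3, bZIP7, PHO2 and ADT5. ADT5, an arogenate dehydratase of phenylalanine synthesis, had libraries of 4.30, 1.87 and 3.1 in Col-0 and no 21-nt read in dcl4-2 (log2 -1.99 ± 0.48, limma adjusted p = 0.0129), a call lost without library 1 or 3 of Col-0. At 22 nt LOX1 and UGT71B5 were higher, and AK3 and MIR839 were lower (for MIR839, 5.29 ± 1.81 against 0.686 ± 1.19, log2 -2.07 ± 0.49, limma adjusted p = 0.0104). The call of MIR839 is lost without library 2 or 3 of Col-0 or library 1 of dcl4-2, and that of LOX1 without library 1 or 2 of Col-0 or library 1 of dcl4-2.

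PHO2 encodes the ubiquitin-conjugating enzyme of phosphate homeostasis and is the known target of miR399. Its transcript holds 5 stretches complementary to ath-miR399a with at most 3 mismatches, starting at positions 680, 813, 902, 959 and 1016 of the RefSeq transcript. The microRNA and these stretches are shown because siRNAs can start at targeted messengers. Capitals in the stretches mark bases that pair with the microRNA.
ath-miR399a: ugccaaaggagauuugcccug
PHO2 stretch at 680: tAGGGCAAATCTtCTTTGGCA
PHO2 stretch at 813: tAGGGCAtATCTCCTTTGGCA
PHO2 stretch at 902: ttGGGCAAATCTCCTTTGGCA
PHO2 stretch at 959: tcGaGCAAATCTCCTTTGGCA
PHO2 stretch at 1016: tAGaGCAAATCTCCTTTGGCA
PHO2 libraries at 21 nt on MS were 13.8, 8.39 and 7.23 in Col-0 and 3.18, 1.12 and 1.16 in dcl4-2, 5.39-fold lower in the mutant (log2 -1.97 ± 0.37, limma adjusted p = 0.00028). On MS-N they were 59.5 ± 7.07 and 53.1 ± 5.4 and overlapped (adjusted p = 0.85). That the difference is called on MS and not on MS-N was not itself tested. At 22 nt the MS-N means were 38.9 ± 1.1 and 65.6 ± 7.88 (adjusted p = 0.184).

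The balance of lengths was not used by the rule either, but it is made of the same values. In the fit of the shift of 22-nt against 21-nt reads between genotypes on MS-N, 4 of 71 members passed, all toward 22 nt in dcl4-2, where 0.732% of 23221 loci passed, 0.693% toward 22 nt and 0.0388% toward 21 nt. These shares are not measured at like depth. Among loci of at least 5 in at least 3 columns, 4 of 71 members and 167 of 8650 loci passed. The fit treated the 2 lengths as unpaired, although they come from the same libraries. The members that passed in the main fit are as follows. They were bZIP7 (log2 4.26 ± 0.69, limma adjusted p = 4.26e-06), UGT71B5 (3.93 ± 0.38, adjusted p = 1.55e-14), AK3 (3.39 ± 0.60, adjusted p = 4.71e-05) and BCS1 (2.97 ± 0.80, adjusted p = 0.046). The shift of BCS1 was called under 5 of 19 alternatives, with an adjusted p of up to 0.688, and is lost with trimmed-mean scaling and on leaving out any 1 of 10 of the 12 library columns. With a pseudocount of 0.1 the shifts of AK3 and bZIP7 are lost too. In reads, 22-nt reads made up 18.1% (exact binomial interval 16.3 to 20) of both lengths at AK3 in Col-0 on MS-N and 71.9% (59.2 to 82.4) in dcl4-2. The shares were 14% (10.9 to 17.6) and 79.6% (66.5 to 89.4) at bZIP7, 19.6% (17.4 to 21.9) and 79.2% (77.6 to 80.7) at UGT71B5, 16.8% (10.6 to 24.8) and 65.1% (49.1 to 79.0) at BCS1, and 17.8% (13.7 to 22.6) and 56.5% (43.3 to 69.0) at AAP2. At all 5 genes 21-nt reads prevailed in Col-0. In dcl4-2 22-nt reads prevailed at AK3, bZIP7 and UGT71B5, while the intervals of BCS1 and AAP2 include equal shares, and the shift of AAP2 did not pass the test (limma adjusted p = 0.146). The intervals cover counting error only.

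**Figure D5:**
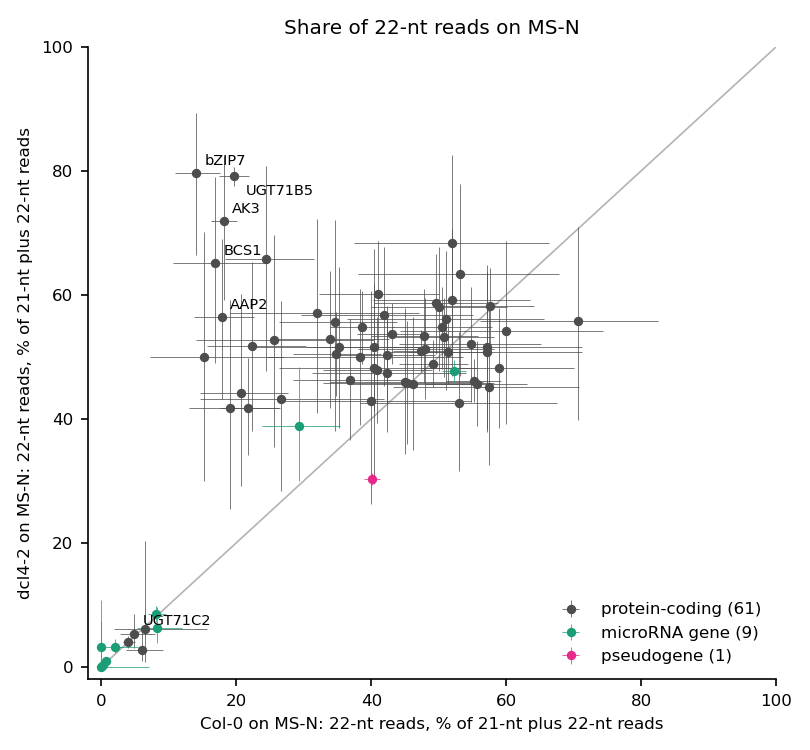
Each point is 1 of the 71 loci, with the share of 22-nt reads among 21-nt plus 22-nt reads on MS-N, in Col-0 on the x axis and in dcl4-2 on the y axis, and lines for exact 95% binomial intervals. bZIP7, UGT71B5, AK3, BCS1 and AAP2 stand above the line of equal shares (for AK3, 18.1% and 71.9%), 43 of the 61 coding loci lie between 30% and 70% in Col-0 and 54 in dcl4-2, and 7 of the 9 microRNA genes lie below 30% in both.

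Over the 61 coding members the 22-nt share of normalized reads on MS-N had a median of 43.4% in Col-0 and 52.0% in dcl4-2. For all coding loci of at least 10 normalized reads in the group it was 53.1% (1725 loci) and 53.6% (3079 loci). In Col-0, 17 coding members (27.9%) were below 30%, against 10.3% of those 1725 loci, and in dcl4-2 it was 4 members (6.56%) against 1.66%. A low 22-nt share in Col-0 on MS-N was thus more frequent among the coding members than among coding loci of that level, as a description with no test. UGT71C2, a glycosyltransferase beside its relative UGT71C1 on chromosome 2, kept a low share in both genotypes, 4.87% (2.75 to 7.91) and 5.35% (3.09 to 8.54), while UGT71C1 had 41.9% (29.5 to 55.2) and 56.8% (45.3 to 67.8). These neighbours share 87 words of 21 bases. MIR167c had 52.3% (50.4 to 54.1) in Col-0 and 47.8% (46.1 to 49.5) in dcl4-2, where most microRNA members gave almost only 21-nt reads.

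The sequences of the members were compared with those of all loci. None of the 61 coding members contains a stretch identical or fully complementary to a mature microRNA, against 0.101% and 0.139% of the 26700 coding loci. A complementary stretch with at most 3 mismatches, taken over 350 mature sequences on the transcript strand, is in 6 of 61 coding members (9.84%) and in 9.38% of all coding loci. A match is a description and not a site of cutting. The 6 are PHO2, CSD1, AT1G61230, MKK9, ABCC4 and LTI78. CSD1, a known target of miR398, has the stretch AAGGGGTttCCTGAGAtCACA opposite ath-miR398a-3p with 3 mismatches. AT1G61230 shares 9 words of 21 bases with MIR846 and has the stretch cATTCAAGCACTTCAATTCAA, with 1 mismatch to ath-miR846-3p. Reads that fall in the shared words may not be told apart between MIR846 and this gene. The stretch shown differs by 1 base from full complementarity to the mature sequence.

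The coding members had a median transcript length of 2030 nt, against 1541 nt for all coding loci, and 14 of 61 (23.0%) had a single exon, against 18.9%. A gene overlapping another annotated gene was found for 15 of 61 (24.6%) and for 27.5% of all. Whether reads were counted by strand is not given in the sources used here, so reads in the stretch shared with an antisense neighbour, which holds all words of MIR156g, 40.7% of those of AK3, 23.6% of those of AT3G09440 and 22.9% of those of PGDH, cannot be told apart by strand. None of the coding members had 10% or more of its words elsewhere in the genome, against 11.5% of all coding loci. Their median share was 1.16%, against 0.836% for all coding loci, and the highest, that of SDR4, was 9.76%. Of 23 senescence and autophagy genes, 6 sugar-responsive genes and 7 defence genes on lists made in the same way as that of nitrogen genes, 0 were members.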

How the data were processed

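Small RNA libraries were made from total RNA extracted with a miRNeasy mini kit and a NEBNext small RNA kit, per the labels' protocols. Bowtie 1.2.2, SAMtools 1.9 and the TAIR10 genome are named in the submitters' processing notes, and the rule by which reads were counted per locus and the authors' test are not given in the sources used here. In the deposited 21-nt and 22-nt tables each value is a group's signal at a locus, a mean over libraries of reads divided by a size factor, although the file headers call it TPM. The deposited table of feature classes is in rpm per library, and was used for context and for library totals. The totals were inferred as the smallest that turn its rpm values into whole reads. They also served the alternative selection scaled by library totals. The deposited comparison of genotypes on MS-N holds the authors' log2 fold changes and p-values.

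Whole reads per library were recovered from the group means for 99.84% to 99.97% of the loci above 0, and for all 71 members, with a remainder of at most 3.87e-12. The loci not recovered, which hold 71.9% to 88.4% of the column sums at 21 nt and 17.4% to 49.6% at 22 nt, were left out of the fits. The scalings of the fits, the common microRNA sum included, lack them too. Libraries 1 to 3 of a group are ordered by size factor, carry no replicate number and cannot be matched between lengths. The labels do not say that replicates are separate cultures, so p-values measure only the spread between these samples.

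Genotype was tested with limma 3.58.1 (mean-variance trend) in R 4.3.3 on log2(value + 1), with all 4 groups in 1 fit, loci of at least 1 in at least 3 of 12 libraries, and Benjamini-Hochberg adjustment over all loci kept, at 0.05. Fold changes on this scale understate those of low loci. The medium, which the selection used, was not tested. A fold against a group without reads was computed against 3 reads over the group, and intervals are 95% and cover counting error only. Names, microRNAs and transcripts are those of RefSeq for TAIR10.1, which matched 31722 identifiers. The recovery and the fits were tested on simulated data. Members and gene lists were chosen with earlier results of these data known. Genes were named as the 10 most abundant, the 10 with the highest smaller fold, the 10 with the largest called change, all microRNA genes and list members, and the 3 on each side of the threshold, and other genes as stated. Alternatives were other pseudocounts, filters, scalings, groups in the fit, no trend, each library left out, and other thresholds of the selection.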

Additional observations from a re-analysis of the deposited data

Results flagged for a closer look

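At 1 of 71 loci for 21-nt reads and 4 of 69 for 22-nt reads, the dcl4-2 libraries all lay below the Col-0 libraries on MS and all above them on MS-N. The same held at 0.918% and 1.29% of all loci tested. The difference between these differences was not tested, since it is built from the contrasts that chose the loci. For 22-nt reads of MKK9 the mean of dcl4-2 minus that of Col-0 was -1.57 normalized reads on MS and 4.58 on MS-N. For 22-nt reads of PAL1 it was -2.48 and 17.2, for those of GLU2 -3.14 and 28.8, and for those of HSP70 -4.41 and 88.4. For 21-nt reads of ICL it was -1.25 and 26.1. Values on MS rest on few reads at MKK9, PAL1, GLU2 and ICL. The other length did not follow at any of these genes. At GLU2 the 21-nt libraries of dcl4-2 lay above those of Col-0 on MS, and at MKK9 they lay below on MS-N. On MS the genotypes overlapped at 21 nt for PAL1 and HSP70 and at 22 nt for ICL.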

How the results depend on the processing

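Of 41 called results of single members, 7 were called under every alternative run. When reads of the recovered microRNA genes were set to 1 common sum, AT1G61230 reversed to -0.079 on MS-N and -0.215 on MS, and MIR837 to -0.057 on MS, all at 21 nt, and the cause was not tested. The selection gave 130 loci at a fold of 3, 37 at 6, 108 at a least value of 5, 40 at 20, 45 from 21-nt and 31 from 22-nt values alone, and 121 after scaling by library totals, an alternative chosen after seeing the data, all 71 loci among them. At 21 nt on MS-N, where 14 were called, a fit of only the 2 groups compared called 37, and leaving out 1 library gave 9 to 14. A fit without a variance trend called 4 there, 0 higher and 4 lower in dcl4-2. No member called as higher at 21 nt thus keeps its call without the trend. At 22 nt on MS-N, where 9 were called, a pseudocount of 0.1 gave 4, trimmed-mean scaling 3, the common microRNA sum 2, only the 2 groups 27, no trend 3, and leaving out 1 library 4 to 6. The authors' deposited table, also added after seeing the data, gave 20 at 21 nt and 22 at 22 nt. On MS, no trend gave 2 at 21 nt, 0 higher and 2 lower, and leaving out 1 library gave 8 to 12 there. At 22 nt on MS only the 2 groups gave 2, no trend 1, and leaving out 1 library 3 to 9, the 9 without library 3 of dcl4-2. For the shift of lengths a pseudocount of 0.1 gave 1, only the 2 groups 8, and leaving out 1 library 3 to 4. No paired analysis was possible because the recovered library columns carry no replicate number. Few reads on MS limit every fold against it, and library totals of 4515437 to 7270637 reads limit what can be detected at low loci.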
